A study of Homo sapiens with 10 samples.

Results

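Chromosome 19 is the most gene-dense human chromosome and holds large clusters of zinc finger genes. The regions described here are the rest of it: the 1-kb bins of the hg19 tracks on chromosome 19 outside 6 zinc finger clusters, namely 11.7 to 12.7, 19.8 to 24.4, 36.7 to 38.3, 44.4 to 45 (all in Mb), 52.4 to 53.9 and 56.5 to 58.8 Mb. A further 2 gene intervals were left out. This gave 43371 bins of 55385 on the chromosome (78.3%) and of 2820626 in the tracks, with 18354 bins on the p arm and 25017 on the q arm. The arms were taken as the sides of the gap around the centromere in the tracks. The bins were chosen by position and not by any measured value.

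The data are 10 CUT&RUN libraries, an assay in which an antibody directs a nuclease to cut and release the DNA around the protein it binds. K562, an erythroleukemic line, gave 2 libraries of γH2AX at 1 h and 2 at 24 h of recovery from 6 Gy of radiation from a cobalt source, 1 library of H3K27me3 at 1 h after the same dose, and 2 of H2AX without irradiation. HepG2, a hepatocellular carcinoma line, gave 1 γH2AX library at 1 h after 6 Gy and 2 untreated H2AX libraries. γH2AX was taken with the mouse antibody JBW301, H3K27me3 with the rabbit antibody C36B11, and the antibody listed for the libraries titled H2AX is a rabbit polyclonal against Histone H4. Titles and antibody therefore disagree for those 4 libraries, which are called H2AX here as in their titles. Whether replicates came from separate cultures is not stated, so the p-values reflect how far these samples differed, possibly for technical reasons alone. No γH2AX library of unirradiated cells was analysed here, so an effect of radiation and one of the antibody cannot be told apart in any ratio to H2AX.

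H2AX is a histone variant found throughout chromatin. After a double-strand break the kinases ATM, ATR and DNA-PK phosphorylate it on a serine near its tail, and this form, γH2AX, spreads over long stretches of chromatin around the break and is removed as repair proceeds. H3K27me3 is laid down by the Polycomb complex PRC2 and marks silent genes, among them tissue-specific genes that a cell line does not use.

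Mean depth per base in the chromosome 19 bins was 1.62 and 2.28 in the K562 1 h libraries, 0.294 and 0.596 at 24 h, 0.933 and 0.869 in K562 H2AX, 0.336 in HepG2 γH2AX, 0.479 and 0.467 in HepG2 H2AX and 1.52 for H3K27me3. All levels below are this depth divided by the mean of the same library, so a level of 1 is the library mean and a low level is a low share of the signal, not a low amount. In a culture, fewer cells with the mark and less of it per cell cannot be told apart. The steps between depth values corresponded to reads of 60 bp in the K562 1 h and H3K27me3 libraries and 41 bp in the others, so read length moves with the 1 h comparison in K562, and its part in the results was not tested. One library went against its label: 24 h replicate 1 read 0 in 44.6% of the chromosome 19 bins, 52.2% on the p arm and 39.1% on the q arm, against 1.44% in 24 h replicate 2. The highest mean 1 h depth at which it had any signal, anywhere in the tracks, was 1.64. By that definition it read 0 in all 18828 chromosome 19 bins above this depth (43.4%), of which 24 h replicate 2 read 0 in 0.335%. Over 431 windows of 100 kb its level ran opposite to that of 1 h replicate 1 (Spearman's rho -0.91, a description across windows of related tracks) and did not follow that of 24 h replicate 2 (rho -0.08). Its values are given where a result touches them, and it was left out of the fits, in which 24 h is replicate 2 alone.

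In untreated K562 cells the p arm held more H2AX signal than the q arm. Its level was 1.61 and 1.48 in the replicates, against 1.22 and 1.16 on the q arm. As a mean log2 level, the p arm minus the q arm was 0.41 and 0.37. It was 0.80 and 0.77 on chromosome 18, -0.55 and -0.55 on chromosome 7, and 0.04 and -0.01 on chromosome 16. A gap between the arms is therefore not particular to chromosome 19. In HepG2 the order was the opposite, with 0.741 and 0.685 on the p arm and 0.788 and 0.762 on the q arm, and both arms lay under the library mean. HepG2 H2AX is the background against which the HepG2 mark is read, as K562 H2AX is for K562.

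γH2AX in K562 followed the order of H2AX. At 1 h the p arm stood at 1.20 and 1.45 and the q arm at 1.07 and 1.16, or 1.33 ± 0.172 (SD, n = 2) and 1.12 ± 0.0618. At 24 h replicate 2 had 1.13 on the p arm and 0.915 on the q arm, while replicate 1 had 0.897 and 0.907. HepG2 γH2AX had 0.586 and 0.689. H3K27me3 had the opposite order in K562, with 1.18 on the p arm and 1.54 on the q arm. The p arm was therefore the higher arm in both K562 H2AX libraries, both at 1 h and 24 h replicate 2, and the lower arm in the other 5.

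**Figure D1:**
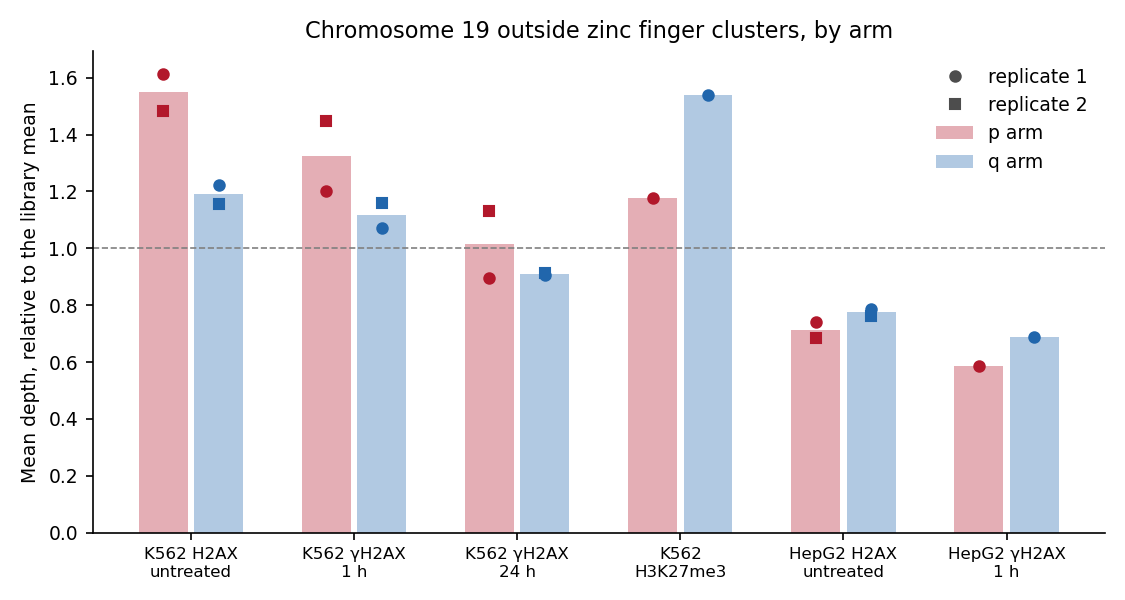
Mean depth on the p arm (red) and q arm (blue) of chromosome 19 outside zinc finger clusters, relative to the library mean (dashed line), for each group. Bars are group means and points are libraries (circle replicate 1, square replicate 2). The K562 H2AX and γH2AX p arms lie above the q arms apart from 24 h replicate 1, and the HepG2 p arms lie below.

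The comparison of K562 γH2AX at 1 h with untreated H2AX asks where the mark lay after irradiation relative to the histone. The mean log2 ratio was negative on both arms. As a ratio of mean levels, γH2AX to H2AX was 0.856 on the p arm and 0.938 on the q arm, a smaller deficit. The log2 ratio averaged over the p arm was -0.40 (SE 0.05, limma adjusted p = 2.6e-11, n = 2 against 2) and over the q arm -0.33 (SE 0.05, limma adjusted p = 1.92e-08), where the spread is shared over 43 arms and clusters. Of those 43, 67.4% passed the same test, and chromosome 19 was sixth and ninth from the lowest. The highest, 4q, was at -0.01, so the mean log2 ratio was negative on every arm. All 43 were given the same SE, which treats arms of the same libraries as independent. These p-values are therefore too small, and the size of the ratio and its rank are what can be read. Per replicate, the level divided by mean H2AX was 0.777 and 0.934 on the p arm and 0.902 and 0.975 on the q arm, so replicate 1 was the lower in both.

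The difference between the arms in this ratio was not past the spread between libraries, and the call depends on how it is computed. The p arm minus the q arm was -0.07 (SE 0.07, 95% interval -0.24 to 0.10, limma adjusted p = 0.400 over 19 chromosomes). In that test 52.6% of the chromosomes passed. Taken as the log2 of the arm means it was -0.13 and passed (limma adjusted p = 0.0409). The 1 h replicates decide the sign: it was -0.17 (limma adjusted p = 0.00821) without replicate 2 and 0.03 without replicate 1.

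Within each arm the ratio varied far more than between arms. Of 431 windows that passed the filter on H2AX (181 on the p arm, 250 on the q arm), 101 were higher than H2AX and 216 were lower by limma with Benjamini-Hochberg adjustment over all 27605 windows of the genome. The shares were 23.4% higher, against 33.3% of all windows, and 50.1% lower, against 37.7% of all windows. The median log2 ratio was -0.28, against 0.06 over the genome. The p arm had few windows called above H2AX, 23 of 181 (12.7%), and 85 below it, while the q arm had 78 of 250 (31.2%) above and 131 below. By sign alone, 1 h replicate 1 lay above the H2AX mean in 44 of 181 windows on the p arm and 98 of 250 on the q arm. Replicate 2 lay above it in 79 of 181 and 104 of 250, so by sign it had no such shortage on the p arm. The medians of the arms were -0.24 and -0.38. Fitted with 24 h replicate 1 as well, 142 windows were lower and none higher. The count above H2AX also moved with single libraries: it was 154 without 1 h replicate 1, 64 without K562 H2AX replicate 1 and 43 without K562 H2AX replicate 2. The count below stayed between 177 and 249 when any 1 library was left out.

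Chromosome 17, another gene-dense chromosome, had 37.7% of its windows above H2AX and 43.2% below. The mean log2 ratio of chromosome 19 outside the clusters was lower than that of chromosome 17 by 0.22 (log2 difference -0.22, SE 0.08, limma adjusted p = 0.0135 over 23 differences). This difference had rank 10 of 23 from the lowest, and they ran from -0.33 for chromosome 4 to 0.05 for chromosome 20. Chromosomes 15, 16 and 22 gave -0.04, -0.01 and -0.13, so the ratio was not clearly lower than on every other chromosome. Against the zinc finger clusters of chromosome 19 itself the difference was -0.16 (SE 0.08, limma adjusted p = 0.0667), which did not pass. As a ratio of mean levels the order was the other way, with 0.898 in the bins described here and 0.879 in the clusters. Those clusters had 7.83% of their 115 windows above H2AX and 32.2% below, and H3K27me3 at 0.208 of its library mean. The 23 differences all hold chromosome 19 and were given the same SE, so their p-values are too small in the same way.

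The lower windows formed long runs. The longest on the q arm spanned 2200 kb from 30.6 to 32.8 Mb, 22 windows with log2 ratios from -1.43 to -0.74. There the level was 0.482 and 0.315 at 1 h, 0.918 and 0.920 in H2AX, 0.875 in 24 h replicate 2 and 1.63 for H3K27me3. The longest on the p arm spanned 1400 kb from 8.5 to 9.9 Mb, where the 1 h libraries had 0.707 and 0.643 and the H2AX libraries 1.53 and 1.44. The runs join windows called lower with these same libraries, so 1 h values below H2AX follow from that choice. In all there were 32 lower runs on the p arm and 36 on the q arm, of which 3 and 9 were at least 500 kb long.

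Runs above H2AX were shorter. They numbered 17 on the p arm, none longer than 300 kb, and 38 on the q arm, of which 3 reached 500 kb. The longest lay from 47.1 to 47.8 Mb, with 1.81 and 2.26 at 1 h, 1.39 and 1.32 in H2AX and 0.217 for H3K27me3. The arms are patchworks of both kinds, and at 71 of the 420 borders between neighbouring windows (16.9%) the ratio changed by more than 1 on the log2 scale. The sharpest step was at 16.8 Mb on the p arm, where the ratio went from 0.35 to -1.96 from one window to the next. The 1 h levels there fell from 2.08 and 2.72 to 0.463 and 0.368, H2AX was 1.97 and 1.75 before and 1.79 and 1.72 after, and H3K27me3 rose from 1.12 to 4.58. The change back, of 2.19, came at the next border, so that low window is 100 kb wide.

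Stretches of the arms differed in makeup. The p arm from 5 to 10 Mb had 34 of 47 windows below H2AX and 3 above, and the q arm from 27 to 35 Mb had 51 of 70 below and 12 above. From 45 to 50 Mb the balance was the other way, with 25 of 49 above and 11 below. That stretch had the highest mean 1 h levels of any 5-Mb stretch of the q arm, 1.41 and 1.68, and a median H3K27me3 ratio to H2AX of -1.34 on the log2 scale.

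The 10 windows with the deepest deficits at 1 h were all on the p arm. They began at 9.1, 15, 16.8, 15.1, 13.6, 2.6, 15.8, 6.9, 13.7 and 9.3 Mb, with log2 ratios from -2.05 to -1.75 (limma adjusted p from 0.000181 to 0.000183). At 9.1 Mb the levels were 0.400 and 0.270 at 1 h, 1.63 and 1.43 in H2AX, 1.20 in 24 h replicate 2, 2.04 in 24 h replicate 1 and 3.66 for H3K27me3. At 15 Mb they were 0.396 and 0.351 at 1 h, 1.69 and 1.63 in H2AX, 1.19 in 24 h replicate 2 and 3.15 for H3K27me3. The choice of these windows required each 1 h library to lie below both H2AX libraries, so that agreement is not a result. In both windows H3K27me3 was over 3 times its library mean. Over all 10 windows H3K27me3 lay between 1.77 and 4.58.

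Of the 10 windows highest above H2AX, 9 were on the q arm. They began at 36.5, 39.8, 55.7, 45.6, 44, 47.4, 38.9, 39.1 and 39.3 Mb, and the p arm window began at 3.6 Mb. Their log2 ratios ran from 0.76 to 0.97 (limma adjusted p from 0.000292 to 0.00194). At 36.5 Mb the levels were 2.26 and 3.13 at 1 h, 1.42 and 1.25 in H2AX, 0.931 in 24 h replicate 2 and 0.105 for H3K27me3. H3K27me3 in the 10 windows lay between 0.0631 and 0.351, so it was under its library mean in each. None of the 10 passed the test when 24 h replicate 1 was added to the fit.

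**Figure D2:**
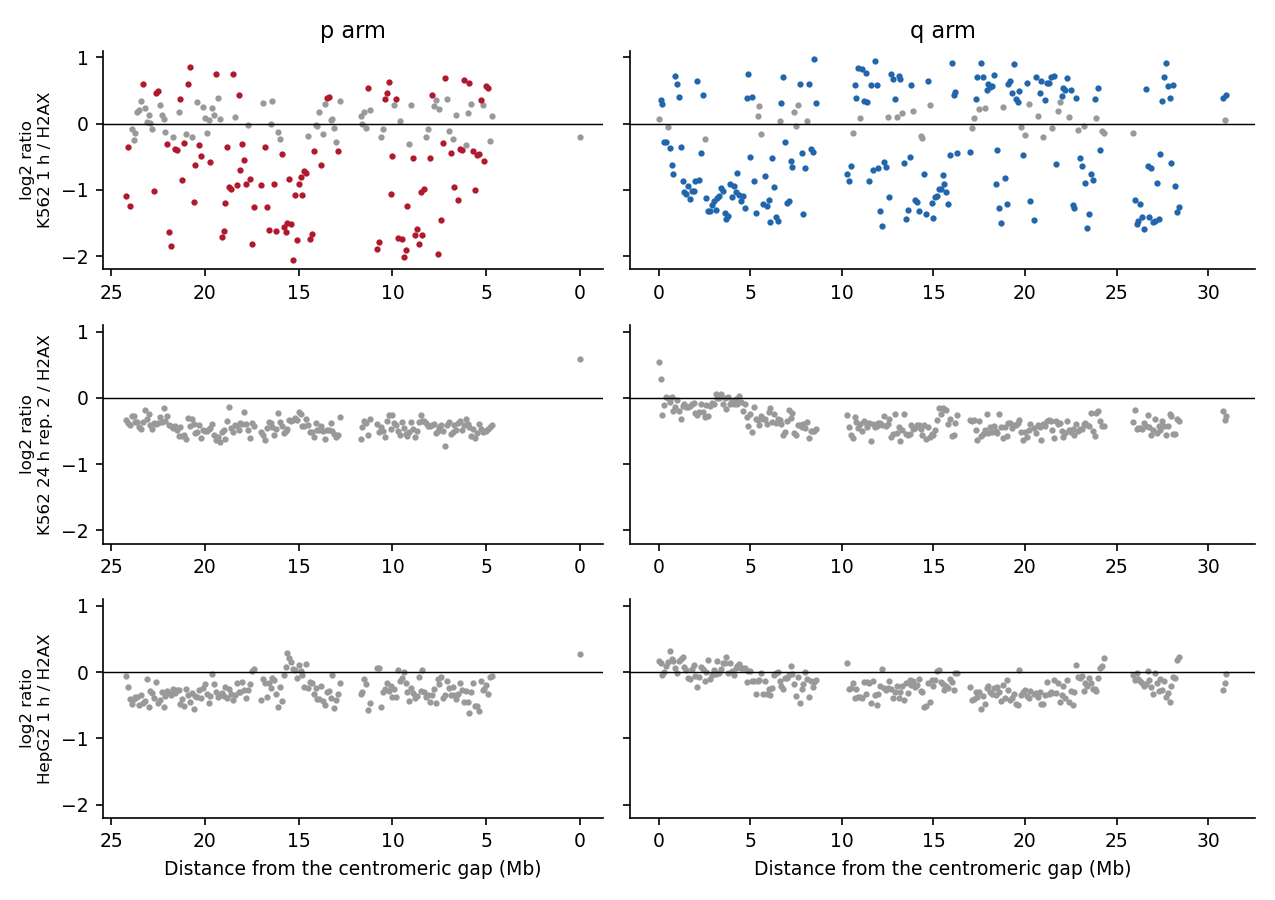
log2 ratio of γH2AX to H2AX in each 100-kb window against the distance from the centromeric gap, for the p arm (left) and q arm (right). Rows are K562 at 1 h, K562 24 h replicate 2 and HepG2 at 1 h, coloured points passed the test and grey points did not. The 1 h ratios alternate between about -2.05 and 0.97, and the other rows lie mostly below 0.

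H3K27me3 and γH2AX at 1 h ran in opposite directions along both arms. With each mark divided by a different H2AX replicate, Spearman's rho over windows was -0.82 and -0.83 on the p arm (181 windows) and -0.80 and -0.80 on the q arm (250 windows). The same windows give both marks, and the γH2AX and H3K27me3 libraries share their read length, so this is a description with no test. Median H3K27me3 was 2.30 times the library mean in the 216 windows lower at 1 h and 0.156 in the 101 higher ones. It exceeded the library mean in 173 of the 216 lower windows (80.1%), in 5 of the 101 higher ones (4.95%) and in 26 of the 114 not called (22.8%). For 24 h replicate 2 rho was near 0, at -0.10 on the p arm and 0.15 on the q arm.

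**Figure D3:**
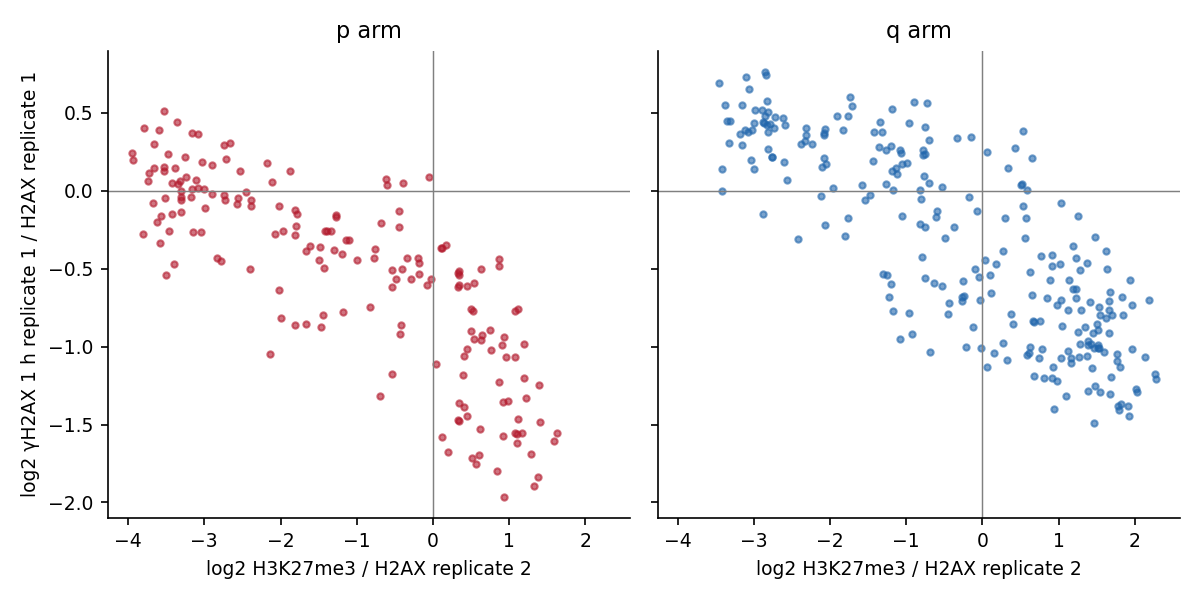
Each point is a 100-kb window of the p arm (left) or q arm (right). The x axis is the log2 ratio of H3K27me3 to H2AX replicate 2 and the y axis that of γH2AX at 1 h replicate 1 to H2AX replicate 1; on both arms the points descend from the upper left to the lower right (rho -0.82 and -0.80).

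Some windows went against this order. Of the lower windows 15 had H3K27me3 under 0.5 times its library mean, 8 on the p arm and 7 on the q arm. On the p arm 4 of them lay between 9.4 and 9.9 Mb, with log2 ratios from -1.07 to -0.74. In RefSeq's gene order (GRCh38.p14), 11 of the 12 protein-coding genes that follow the olfactory receptor gene OR7D4 toward the centromere are ZNF genes, so this stretch may hold a small zinc finger group that the 6 excluded intervals do not cover. On the q arm 5 of the 7 lay in the pregnancy-specific glycoprotein cluster between 43.2 and 43.7 Mb. Their levels were 0.401 to 0.539 in 1 h replicate 1 and 0.339 to 0.403 in replicate 2, against 0.776 to 0.936 in H2AX.

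The arms also differed in H3K27me3. Against H2AX, the p arm minus the q arm was -0.86 on the log2 scale (SE 0.08, limma adjusted p = 0.0002, 1 library against 2), in a test that 89.5% of chromosomes passed. Windows passing the test numbered 45 above and 112 below H2AX on the p arm and 106 above and 117 below on the q arm. In all 151 of 431 were above (35.03%), against 26.7% of the genome, and 229 were below (53.1%), against 61.7%. Scaling by the median of ratios in place of the library mean shifts this ratio by 1.28 everywhere and gives 241 above and 142 below, so only differences between regions can be read from it. The called windows with the highest ratio to H2AX were on the q arm, at 35.9, 42.6 and 30.2 Mb, with H3K27me3 levels of 6.27, 6.69 and 5.23. Those with the lowest ratio to H2AX were on the p arm, at 19.5, 11 and 11.1 Mb, with levels of 0.0701, 0.0600 and 0.0680. The level itself was lower still next to the centromere, where H2AX was also lower, at 0.0368 in the window from 28 Mb and 0.0447 in that from 24.4 Mb.

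Of the gene families on chromosome 19, 15 groups were read as coarse 100-kb intervals. Their limits come from general knowledge of the hg19 map and not from an annotation, so each value is that of the interval and not of a gene. Several are tandem families of near-identical copies, where the placing of reads is uncertain. Of their 57 windows, 45 (78.9%) were lower than H2AX at 1 h and 5 were higher (8.77%), beside 50.1% and 23.4% of all 431 windows. Their median log2 ratio was -1.04, beside -0.28. The groups were picked by eye and are mostly tissue-specific families, so nothing particular to them is read from this count.

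Promoters show how unlike these groups are in sequence, which is why 4 are printed. They are the 120 bases before the start of transcription, from RefSeq (GRCh38.p14), with each CG in capitals; CG reads the same on both strands and its matches cannot overlap. The 4 genes were chosen after the values were seen. Each is 5′ to 3′ in the direction of its gene.
OR7C1: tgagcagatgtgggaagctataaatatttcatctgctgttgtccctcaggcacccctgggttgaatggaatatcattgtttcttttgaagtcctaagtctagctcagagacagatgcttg
LILRB1: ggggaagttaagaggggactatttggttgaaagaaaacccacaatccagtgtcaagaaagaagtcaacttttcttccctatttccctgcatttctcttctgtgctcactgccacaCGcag
CEBPA: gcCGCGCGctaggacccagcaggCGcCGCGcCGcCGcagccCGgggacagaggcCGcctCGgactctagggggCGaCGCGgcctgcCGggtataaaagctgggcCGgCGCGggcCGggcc
JUNB: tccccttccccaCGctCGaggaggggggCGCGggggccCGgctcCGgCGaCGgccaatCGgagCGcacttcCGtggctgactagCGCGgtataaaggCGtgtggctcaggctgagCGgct

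Over the 250 bases before the start, OR7C1 had 0 CG, LILRB1 5, CEBPA 41 and JUNB 27. At least 10 were found in 68.3% of chromosome 19 promoters without a ZNF symbol and in 68.4% of those on other chromosomes. None of the 5 OR7A and OR7C promoters, none of the 7 of the OR7 and MUC16 group and 3 of the 15 of the LILR and KIR group reached 10. Both CEBPA and CEBPG did. The intervals with OR7C1, LILRB1 and CEBPA had ratios to H2AX of -0.91, -0.99 and -0.97 at 1 h and that with JUNB 0.06, so low intervals held both CG-poor and CG-rich promoters. Intervals that were not low were mixed as well. KLF1, in the interval of JUNB, had 4 CG. None of the 3 promoters of the apolipoprotein group, whose ratio was 0.55, reached 10, and 6 of 7 of the LHB and CGB group did (ratio -0.07). Matches are a description of these letters only.

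Receptor families of the p arm were low. Olfactory receptors are the odorant receptors of the nose, and MUC16 is the large mucin known as CA125. In the interval with the OR7 genes and MUC16 (8.8 to 9.4 Mb) the levels were 0.588 and 0.473 at 1 h, 1.53 and 1.41 in H2AX and 1.77 for H3K27me3, and all 6 windows were lower. In the OR7A and OR7C interval (14.8 to 15.1 Mb) they were 0.904 and 0.934 at 1 h and 1.80 and 1.73 in H2AX, with 2 of 3 windows lower. The CYP4F cytochromes, which hydroxylate fatty acids and leukotrienes, share an interval with OR10H genes (15.6 to 16.1 Mb). It had the lowest ratio of the 15, -1.53, from 1 h levels of 0.554 and 0.475 and H2AX levels of 1.62 and 1.53, with all 5 windows lower. The 1 h and H2AX values did not overlap in any of these 3 intervals. That is not particular to them: 50.1% of all 431 windows were lower, and the KLK, LILR and KIR, PSG and C19MC intervals below did not overlap either.

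KLF1, the erythroid Krüppel-like factor, and JUNB, a subunit of AP-1, lie together on the p arm (from 12.9 Mb). K562 is erythroid in character. Their interval had 1.51 and 1.92 at 1 h and 1.67 and 1.60 in H2AX, values that overlap, with H3K27me3 at 0.155, and neither window passed the test. CEBPA and CEBPG, leucine-zipper factors of which the first drives granulocyte and hepatocyte genes, are on the q arm (33.7 to 33.9 Mb). There the levels were 0.603 and 0.464 at 1 h, 1.16 and 1.02 in H2AX and 3.80 for H3K27me3, with both windows lower.

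The LILR and KIR receptors of leukocytes and natural killer cells (54.7 to 55.5 Mb) stood at 0.596 and 0.511 at 1 h, while H2AX stood at 1.19 and 1.11, with all 8 windows lower and H3K27me3 at 3.30. The SIGLEC sialic acid receptors (51.6 to 52.2 Mb) had 1.19 and 1.19 at 1 h against 1.29 and 1.22, with 2 windows higher and 3 lower of 6. The NLRP genes, some of which act in the oocyte (56.1 to 56.5 Mb), had 0.825 and 0.818 against 1.19 and 1.14, with 1 window higher and 3 lower of 4. Differences between these 3 intervals were not tested.

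Of the placental families, the C19MC interval (54.1 to 54.3 Mb) was among the lowest. C19MC is a primate cluster of miRNAs made mainly in the placenta and in stem cells. Its interval had 0.451 and 0.290 at 1 h, 1.16 and 1.06 in H2AX, 0.786 in 24 h replicate 2 and 2.24 for H3K27me3, with both windows lower. In RefSeq (GRCh38.p14) 35 of its hairpin genes matched by name, giving 47 mature miRNAs with 30 seeds. Its most shared seed, held by 5 of them, is that of the miR-520 group, of which 3 are printed with the seed (bases 2 to 8) in capitals.
hsa-miR-520a-3p: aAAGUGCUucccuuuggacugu
hsa-miR-520b-3p: aAAGUGCUuccuuuuagaggg
hsa-miR-520d-3p: aAAGUGCUucucuuuggugggu

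The pregnancy-specific glycoproteins (PSG, 43.2 to 43.8 Mb) are secreted by the placenta. Their interval stood at 0.474 and 0.366 at 1 h, while H2AX stood at 0.866 and 0.856, with all 6 windows lower and H3K27me3 at 0.450. It was the one group with a ratio under -0.9 and H3K27me3 under its library mean. The LHB and CGB genes, β chains of luteinizing hormone and chorionic gonadotropin (49.5 to 49.6 Mb), stood at 1.06 and 1.01 at 1 h, while H2AX stood at 1.12 and 1.05, and their window did not pass the test.

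Epithelial and liver families made up the rest. The kallikrein proteases (KLK, 51.3 to 51.6 Mb) stood at 0.570 and 0.438 at 1 h, while H2AX stood at 1.32 and 1.20, with H3K27me3 at 3.79 and all 3 windows lower. The CEACAM adhesion molecules (42.1 to 42.4 Mb) had 0.726 and 0.675 against 1.30 and 1.20, with 2 of 3 lower. The CYP2A, CYP2B and CYP2F cytochromes, which oxidize drugs and nicotine in the liver and airways (41.3 to 41.7 Mb), had 0.778 and 0.734 against 1.25 and 1.23, with 3 of 4 lower. The apolipoprotein cluster with APOC1, APOC2 and APOC4, proteins of plasma lipoproteins (45.3 to 45.5 Mb), was the one group with a ratio well above 0. It stood at 1.76 and 2.15 at 1 h, while H2AX stood at 1.39 and 1.24, a log2 ratio of 0.55, and both windows higher.

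**Figure D4:**
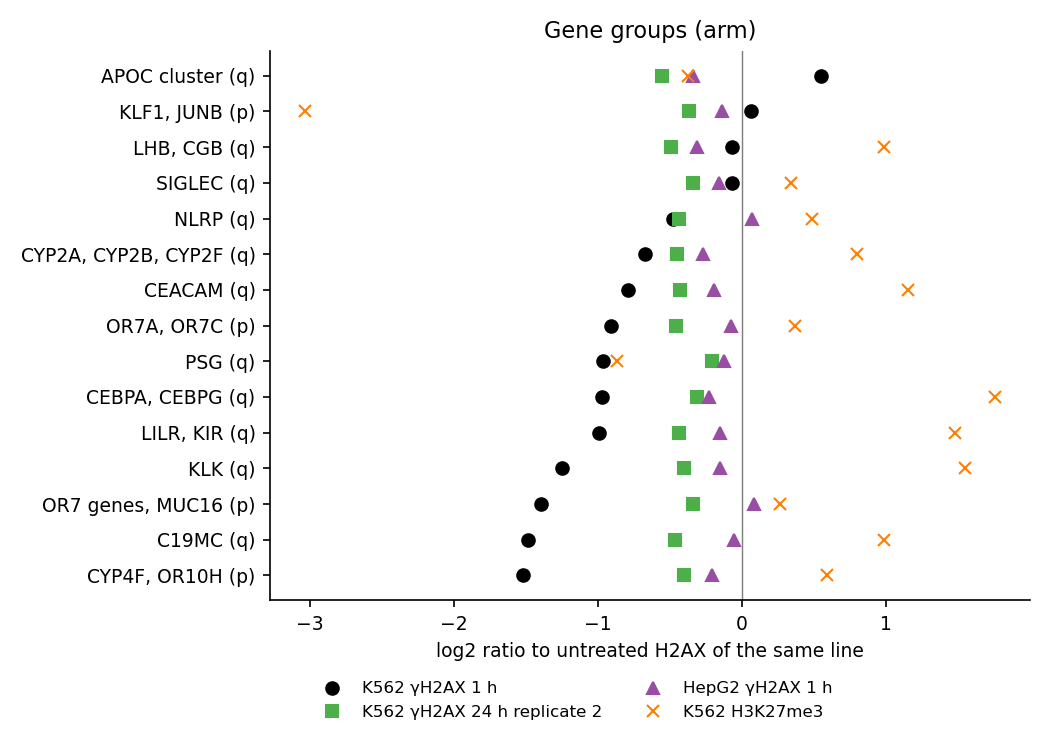
log2 ratio to untreated H2AX of the same line for 15 gene intervals, ordered by K562 γH2AX at 1 h (circles), with 24 h replicate 2 (squares), HepG2 at 1 h (triangles) and H3K27me3 (crosses); the arm is in brackets. The circles run from -1.53 to 0.55, the squares from -0.56 to -0.21 and the triangles from -0.34 to 0.08.

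The 24 h comparison asks what remained of the pattern after recovery. In 24 h replicate 2 the ratio to H2AX was low over nearly the whole chromosome but nearly even along it. The arm means were -0.43 on the p arm (SE 0.06, limma adjusted p = 2.01e-08, 1 library against 2) and -0.35 on the q arm (SE 0.06, limma adjusted p = 2.49e-06). They were the lowest and the third lowest of 43 arms and clusters, of which 32.6% passed. The p arm minus the q arm was -0.08 (SE 0.08, limma adjusted p = 0.488, 42.1% of chromosomes passing). Low values at 24 h were not particular to chromosome 19: 22q was second lowest at -0.36, and 16p, 17q and 17p had -0.29, -0.28 and -0.28. Chromosome 19 minus chromosome 17 was -0.11, minus chromosome 22 -0.03 and minus its zinc finger clusters -0.16 (SE 0.09 for each). Against other chromosomes the difference reached -0.61, for chromosome 4. The p-values of the arm means are too small here, as at 1 h. Of 431 windows 421 lay below H2AX. The SD over windows was 0.16 on the log2 scale, against 0.62 and 0.89 in the 1 h replicates. Windows called numbered 0, as in the genome (0%), by limma. That count of 0 rests on the spread of the 1 h pair, and calls appeared when either 1 h replicate was left out. The median log2 ratio over the 431 windows was -0.41, against 0.05 over the genome. It was -0.32 on chromosome 17 and -0.24 in the zinc finger clusters.

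The 10 windows above H2AX at 24 h all lay within the stretch from 24.4 to 32.5 Mb on either side of the centromere. One was the last window of the p arm, at 24.4 Mb, where the level was 1.61 in 24 h replicate 2 and 1.37 in replicate 1, against 1.03 and 1.08 in H2AX (log2 ratio 0.59, SE 0.17, limma adjusted p = 0.138). The other 9 were on the q arm between 28 and 32.5 Mb. At 28 Mb the level was 1.25 in 24 h replicate 2 and 1.34 in replicate 1, against 0.806 and 0.879 in H2AX (log2 ratio 0.54, SE 0.17, limma adjusted p = 0.138). At 1 h the p arm window had 0.806 and 1.03 and the q arm window 0.804 and 0.982. The q arm from 27 to 35 Mb as a whole had a median 24 h ratio of -0.14, against -0.48 to -0.38 in the other 9 stretches of the chromosome. Reads next to a centromere are placed among repeats, which was not tested.

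Between 1 h and 24 h, 167 windows were higher at 1 h (38.7%, against 20.5% of the genome) and 151 were lower (35.03%, against 36.8%) by limma. The p arm minus the q arm of this difference was 0.01 (SE 0.08, limma adjusted p = 0.965, 42.1% of chromosomes passing). The windows highest above 24 h were at 44, 45.6 and 55.7 Mb on the q arm, with log2 differences of 1.49, 1.49 and 1.48. The lowest were at 9.1, 15 and 13.6 Mb on the p arm, with -1.72, -1.55 and -1.50. At 44 Mb the level was 2.32 and 2.80 at 1 h and 0.873 in 24 h replicate 2. With only the 1 h and 24 h libraries in the fit, 150 windows were higher and 28 lower, so the balance of the 2 directions depends on the libraries fitted. These comparisons share the 1 h libraries with those above.

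In HepG2 the mark was lower than H2AX on the p arm, and the q arm did not pass the test. The log2 ratio was -0.27 on the p arm (SE 0.06, limma adjusted p = 0.00114, 1 library against 2), the lowest of 43 arms and clusters, of which 6.98% passed. On the q arm it was -0.17 (SE 0.06, limma adjusted p = 0.0907). With 1 γH2AX library of HepG2, these errors take their spread from the groups with 2 libraries, and the lone library is assumed to vary like them. The SE is also pooled over all 43 arms and clusters, so the p-values of the arm means are too small, as in K562. The difference between the arms was -0.10 (SE 0.08, limma adjusted p = 0.370, 0% of chromosomes passing), and the same -0.10 passed when only the HepG2 libraries were fitted (limma adjusted p = 0.00288). Against the zinc finger clusters the chromosome was lower, with a log2 difference of -0.29 (SE 0.09, limma adjusted p = 0.0217), and against chromosome 17 the difference was -0.04 (limma adjusted p = 0.708).

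Single windows of HepG2 gave 0 calls, as in the genome (0%), by limma. Calls appeared when either K562 1 h replicate was left out, so the count of 0 rests on the spread of that pair. The median log2 ratio over the 431 windows was -0.23, against 0.01 over the genome. It was -0.18 on chromosome 17 and 0.09 in the zinc finger clusters. The SD over windows was 0.19, against 0.11 for the ratio between the HepG2 H2AX replicates. By stretch, the median was 0.0042 on the q arm from 27 to 35 Mb and -0.36 to -0.16 in the other 9. At 9.1 Mb, the deepest deficit in K562, HepG2 had 0.695 for γH2AX and 0.669 and 0.672 for H2AX. At 36.5 Mb, the highest window in K562, it had 0.649 against 0.715 and 0.727.

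The response of the lines was compared directly by the interaction of line and mark. Of 431 windows 102 were higher in K562 than in HepG2 (23.7%, against 16.4% of the genome) and 156 were lower (36.2%, against 29.3%) by limma. Of these 258 windows, 243 were also called in the same direction in K562 alone, a comparison that shares the K562 libraries. Whole arms did not differ in this response between p and q (0.03, SE 0.11, limma adjusted p = 0.856, 36.8% of chromosomes passing). With 24 h replicate 1 in the fit none passed, and without K562 H2AX replicate 1 or 2 there were 158 (52 higher) or 134 (26 higher). The higher count also moved to 49 without HepG2 H2AX replicate 1 and to 194 without K562 1 h replicate 1.

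Untreated H2AX differed between the lines over most of the chromosome. K562 exceeded HepG2 in 388 of 431 windows (90.0%, against 24.5% of the genome), in all 181 on the p arm and 207 of 250 on the q arm, and in none was it lower (29.7% of the genome) by limma. With 24 h replicate 1 in the fit 94 windows passed, all higher in K562. Of the 43 arms and clusters 72.1% differed, and 19p had the largest excess, with a log2 ratio of 1.07 (SE 0.05). The excess on the p arm was larger than that on the q arm by 0.49 on the log2 scale (SE 0.07, limma adjusted p = 0.00118, 68.4% of chromosomes passing). Of the 43 q arm windows that did not pass, 34 lay between 27 and 35 Mb, where K562 H2AX averaged 1.08 and 1.04. Differences in the number of copies of chromosome 19 and in signal per copy cannot be told apart in these tracks. Every ratio within a line above is to H2AX of the same line.

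Deposited peaks were found on chromosome 19 in the K562 1 h lists only. Replicate 1 had 578 peaks centred in these bins and replicate 2 had 1239, whereas both 24 h lists and the HepG2 list had 0 there and 8, 13 and 1 in the genome. On the p arm there were 15.5 and 35.7 peaks per Mb and on the q arm 11.8 and 23.3, against 14.99 and 16.46 over the genome. The p arm thus held 1.32 and 1.53 times as many per Mb; the mean of the ratios was 1.42, and it was 1.04 among peaks with q under 0.05. Median fold enrichment, the authors' own value for each peak, was 1.74 and 1.75 on the p arm and 1.78 and 1.73 on the q arm. Of replicate 1 peaks 69.9% overlapped a replicate 2 peak by at least 1 bp, and of replicate 2 peaks 29.8% overlapped a replicate 1 peak. Windows higher than H2AX held 56.4% and 56.3% of the peaks and lower windows 9.52% and 10.0%, from the same libraries as the windows.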

How the data were processed

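Per the submitters' processing notes, reads were aligned to hg19, and BWA 0.7.12, SAMtools and MACS2 are named there without roles or settings. The deposited tracks give signal as mean depth per base in 1-kb bins, with no scaling between libraries. The deposited peak lists hold the authors' fold (a ratio), score, -log10 p and -log10 q of each peak. The depth of the library limits low values, and counts of reads are not used here.

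Each track was divided by its mean without chromosome Y and averaged over 100-kb windows with at least 50% of bins, keeping windows whose H2AX level averaged at least 0.25. log2(level + 0.05) was fitted with limma 3.58.1 (trend, Benjamini-Hochberg over 27605 windows) to 9 libraries and 6 group means, leaving 3 residual degrees of freedom. Without trend, arm means were fitted over 43 arms and clusters, arm differences over 19 chromosomes, and chromosome 19 minus other chromosomes over 23 differences. Fold changes of low levels are understated by the added 0.05. The method was tested on simulated data.

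Named windows were the 10 highest and 10 lowest called at 1 h, and for the other comparisons 3 each way. They were called and alike in every pair of libraries, or had the lowest p where none was called. For the response of the lines, likeness between libraries was not required. The regions, gene groups and comparisons were chosen with earlier results of these data known. The 2 gene intervals are not reported here.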

Additional observations from a re-analysis of the deposited data

Results flagged for a closer look

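The response at 1 h differed between K562 and HepG2 by the interaction term of limma in 102 windows that were higher in K562 and 156 that were lower. On the q arm the windows from 45.6 and 55.7 Mb (starts 45600001 and 55700001) had a K562 response above that of HepG2 by 1.47 and 1.30 on the log2 scale, and on the p arm the window from 3.6 Mb (start 3600001) by 1.31. At 45600001 γH2AX was 2.25 and 3.07 in K562 and 0.569 in HepG2, against H2AX of 1.46 and 1.28 in K562 and 0.905 and 0.820 in HepG2. The largest differences the other way were all on the p arm: -2.10 at 9100001, -2.01 at 15000001 and -1.97 at 13600001 (limma adjusted p = 0.00544 for each). HepG2 had 1 γH2AX library, and its depth on chromosome 19 was 0.336, against 1.62 and 2.28 in K562. None of these differences passed with all 10 libraries in the fit.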

How the results depend on the processing

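The alternatives changed which libraries were fitted, the scaling, the added value, the filter, the window size, the block and the peaks. For the share of windows called, 86 of 98 alternatives stayed within 1.5 times the value given. With all 10 libraries the share was 32.9% for 1 h against H2AX, 0% for the response of the lines and 21.8% for H2AX between lines, where the main values were 73.5%, 59.9% and 90.0%. With only the groups compared it was 88.9% for 24 h against H2AX and 53.4% for HepG2, where the main value was 0%, and 41.3% for 1 h against 24 h, where it was 73.8%. Leaving out 1 replicate gave 0% to 89.6% for 24 h, 0% to 55.7% for HepG2 and 31.1% to 87.7% for the response of the lines.

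The p arm minus q arm value kept its direction and side of the threshold in 81 of 91 alternatives. For 1 h against H2AX it was -0.13 (limma adjusted p = 0.0409) as the log2 of arm means and -0.17 to 0.028 without a replicate. For 1 h against 24 h it turned to -0.0042 with a pseudocount of 0.25, to -0.061 as the log2 of arm means, and ranged from -0.092 to 0.11 without a replicate. For the response of the lines it turned to -0.0061 and -0.031 in those settings and ranged from -0.069 to 0.13. For HepG2, with only its own libraries, -0.10 passed (limma adjusted p = 0.00288). Peaks with q under 0.05 gave a p to q ratio of 1.04. Of 689 alternatives for the named windows, 635 kept the call and none changed direction. In 19 the call was lost, each time with all 10 libraries: the 10 higher windows at 1 h, the 6 of the response of the lines and the 3 of H2AX. In 35, for 24 h and HepG2, a call was gained.

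With the replicate block 304 windows were called at 1 h against 317 without it. Replicate 1 minus replicate 2 was correlated between groups. Over all windows this gave 0.18 for K562 1 h with K562 H2AX, 0.03 for K562 1 h with HepG2 H2AX and 0.30 for the H2AX groups. Over the chromosome 19 windows it gave -0.33, -0.38 and 0.34. With 2 libraries per group the numbers are not taken to pair them. The share of bins at 0 and the single γH2AX library of HepG2 limit what can be read there.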
